A study of Mus musculus with 32 samples.

Results

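Acte1 and 8 other protein-coding genes that lie around Dhcr7 on mouse chromosome 7 were followed in brains with and without Dhcr7. The 9 genes are Acte1, Nadsyn1, Mrgprf, Mrgpre, Shank2, Cttn, Ppfia1, Fadd and Dusp8, out of 55291 gene symbols in the count tables. They were chosen by their place beside Dhcr7, outside the imprinted domain on its centromeric side, and with their KO against WT values in these same libraries already known. Their KO against WT values are therefore given as a description, with no p-values. The changes with stage and the dependence of the KO effect on stage were tested.

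The series measured poly(A) RNA in whole brains of C57BL/6J mice. Brains were wild type (WT, Dhcr7+/+) or lacked Dhcr7 (KO, Dhcr7-/-), and no other allele, treatment or agent is named for either group. They were taken from embryos on 3 days, E12.5, E14.5, E16.5, and from newborns, PND0, with 4 libraries per genotype and stage and 32 libraries in all. The mice model Smith-Lemli-Opitz syndrome. The labels do not name the deleted exons, the litters or the sexes of the animals, and nothing in them says that libraries are separate animals, so the p-values measure the spread between these libraries. Whole brain mixes cell types, so fewer cells of a type and less RNA per cell cannot be told apart.

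Dhcr7 encodes 7-dehydrocholesterol reductase, which turns 7-dehydrocholesterol into cholesterol, and its loss in people causes Smith-Lemli-Opitz syndrome. A targeted allele is carried on a stretch of its own chromosome, and genes on that stretch are inherited with it. The neighbours have varied jobs. Nadsyn1 makes NAD from its acid precursor, Acte1 is named for its likeness to actin, and Mrgpre and Mrgprf encode Mas-related G protein-coupled receptors. Shank2 and Ppfia1 (liprin-alpha 1) encode scaffolds of the postsynaptic and presynaptic sides of a synapse, Cttn encodes the actin-binding protein cortactin, Fadd encodes the adaptor of death receptors, and Dusp8 encodes a phosphatase that acts on MAP kinases.

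In GENCODE M21 (GRCm38, the same assembly as mm10), Dhcr7 (ENSMUSG00000058454.15) occupies chromosome 7, 143823145 to 143848410, on the plus strand. Acte1 is annotated there under the name Gm498 (ENSMUSG00000031085.16) at 143866838 to 143900046, on the plus strand, so it lies downstream of Dhcr7 in the same direction, with 18428 bp from the end of Dhcr7 to its start and no annotated gene between them. Nadsyn1 (ENSMUSG00000031090.14, 143795584 to 143822849, minus strand) lies head to head with Dhcr7, with 295 bases between the 2 annotated genes. Mrgpre (ENSMUSG00000048965.9, 143778363 to 143784500, minus strand) lies 38.6 kb before Dhcr7, and Dusp8 (ENSMUSG00000037887.11, 142079490 to 142095843, minus strand) lies 1727.3 kb before it, on the far side of the imprinted domain. After Acte1 come Shank2 (ENSMUSG00000037541.21, 144001928 to 144424494, plus strand) at 153.5 kb, Cttn (ENSMUSG00000031078.15, 144435733 to 144471009, minus strand) at 587.3 kb and Ppfia1 (ENSMUSG00000037519.17, 144476758 to 144553729, minus strand) at 628.3 kb. Fadd (ENSMUSG00000031077.7, 144577318 to 144582463, minus strand) follows at 728.9 kb, and Mrgprf (ENSMUSG00000031070.15, 145300828 to 145309557, plus strand) at 1452.4 kb. The distances are to the nearest edge of Dhcr7.

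The annotated starts of Acte1 and of the Nadsyn1-Dhcr7 pair differ in sequence, and both stretches are shown because the results turn on these 3 genes. The sequences are RefSeq's for GRCm38.p6, read on the plus strand from the promoter windows (250 bases before to 50 after a start), and end at the last base before the annotated gene. Motifs were searched on both strands, and capitals mark the only match in either stretch. The motif with a match was the GC box, GGGCGG. The others were the CCAAT box, spelled as its name, and the TATA box, searched as TATAAA. An E-box was searched as CACGTG. The core of a sterol regulatory element was searched as TCACNCCAC.
Between Nadsyn1 and Dhcr7, chr7:143822917-143823144: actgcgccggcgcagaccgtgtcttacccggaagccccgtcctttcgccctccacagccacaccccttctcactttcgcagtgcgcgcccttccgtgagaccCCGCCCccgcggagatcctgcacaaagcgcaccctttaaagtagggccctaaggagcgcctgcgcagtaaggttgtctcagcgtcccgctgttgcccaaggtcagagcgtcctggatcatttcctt
Before Acte1, chr7:143866639-143866837: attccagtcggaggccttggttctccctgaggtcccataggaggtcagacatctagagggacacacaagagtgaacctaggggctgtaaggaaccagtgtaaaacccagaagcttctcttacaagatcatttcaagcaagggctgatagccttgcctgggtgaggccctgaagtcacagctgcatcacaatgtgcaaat
The first stretch holds 20 CpG dinucleotides in 228 bases and the stretch before Acte1 holds 1 in 199 bases. The capitals read CCGCCC, which is the GC box on the other strand.

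A promoter window was found for 6 of the 9 genes, Dusp8, Mrgpre, Nadsyn1, Acte1, Ppfia1 and Fadd. The full 300-base window of Acte1 held 1 CpG, and 5.43% of the 32851 windows in the table held fewer. The windows of Ppfia1 with 42 CpG, Dusp8 with 34, Nadsyn1 with 27 and Fadd with 22 all lay above the table's median of 7, and that of Mrgpre held 4. The windows of Ppfia1, Dusp8, Nadsyn1 and Fadd held 4, 3, 2 and 2 GC boxes, a motif found in 35.7% of all windows, while those of Mrgpre and Acte1 held none. CCAAT was matched in Ppfia1 and Dusp8 (37.4% of all windows). The TATA box (13.6% of all windows), the E-box (7.15%) and the sterol regulatory element core (1.24%) were matched in none of the 6. A match describes letters in a window and does not show binding.

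Libraries held 13.87 M to 28.32 M counts and 24445 to 27177 genes with a count. All levels below are in CPM, counts scaled to library size, normalized together over the 32 libraries. All 6 neuronal markers and all 6 neural progenitor markers were detected at every stage, with summed neuronal levels of 2322 to 6143 CPM. E12.5 KO replicate 1 stood apart from its group: 5.639% of its counts were on the ribosomal RNA gene CT010467.1, against a lowest share of 0.1907% in the series. E16.5 WT replicate 1 stood apart in the same way, at 3.754% against 0.3559% to 0.6263% in the other WT libraries of that stage. In E14.5 KO, replicates 3 and 4 had 2.679% and 2.553%, against 1.032% and 0.869% in replicates 1 and 2. The WT libraries of E14.5 had 1.037% to 1.174%. The E12.5 libraries also differed most in tissue around the brain, with summed skeletal muscle markers at 11.9 to 112 CPM in WT and 2.54 to 17.7 CPM in KO. The fitted genotype differences at E12.5 of Dhcr7 and of the chosen genes other than Acte1 are given with and without KO replicate 1. Those of other genes, and the medians by distance, are given with that library only.

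Dhcr7 itself was low in every KO library. The E12.5 libraries measured 64.6, 69.0, 63.6 and 72.0 CPM in WT and 15.6, 23.0, 26.7 and 22.3 CPM in KO. Those of E14.5 measured 69.8, 71.0, 69.1 and 70.0 CPM in WT and 13.2, 12.9, 11.97 and 14.6 CPM in KO. WT then lay between 58.6 and 65.8 CPM on E16.5 and KO between 15.9 and 17.9 CPM, and on PND0 WT measured 96.9, 97.6, 102.4 and 60.0 CPM and KO 15.5, 11.5, 15.7 and 15.1 CPM. The genotypes did not overlap at any stage, so the libraries match their labels, and KO means were 32.5%, 18.8%, 27.4% and 16.2% of WT in stage order. Without KO replicate 1, the log2 difference at E12.5 moved from -1.64 to -1.52. Counts that remain on Dhcr7 in KO cannot be placed on particular exons from a table of gene counts.

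Acte1 was detected in every KO library and in no WT library. All 16 WT libraries had 0 counts. The 4 KO libraries of E12.5 had 29, 48, 63 and 56 counts, and those of E14.5 had 78, 101, 67 and 103. On E16.5 the KO counts were 70, 51, 93 and 90, and on PND0 89, 62, 87 and 50. The 16 KO libraries therefore all stood above all 16 WT libraries, at a low level that rests on 29 to 103 counts each. The KO means were 3.16 ± 0.680, 4.20 ± 0.799, 4.56 ± 1.07 and 4.08 ± 0.826 CPM (SD, n = 4) in stage order. A count of 0 allows 3 counts, and with these 3 counts shared by the WT group of each stage, Acte1 was at least 83.3-fold, at least 133.5-fold, at least 99.1-fold and at least 97.8-fold higher in KO in stage order. With 3 counts allowed in each WT library instead, the bounds were at least 17.3-fold, at least 30.5-fold, at least 23.6-fold and at least 21.4-fold. Both sets of bounds cover only the counting error of the WT zeros, and take the KO counts as measured.

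**Figure D1:**
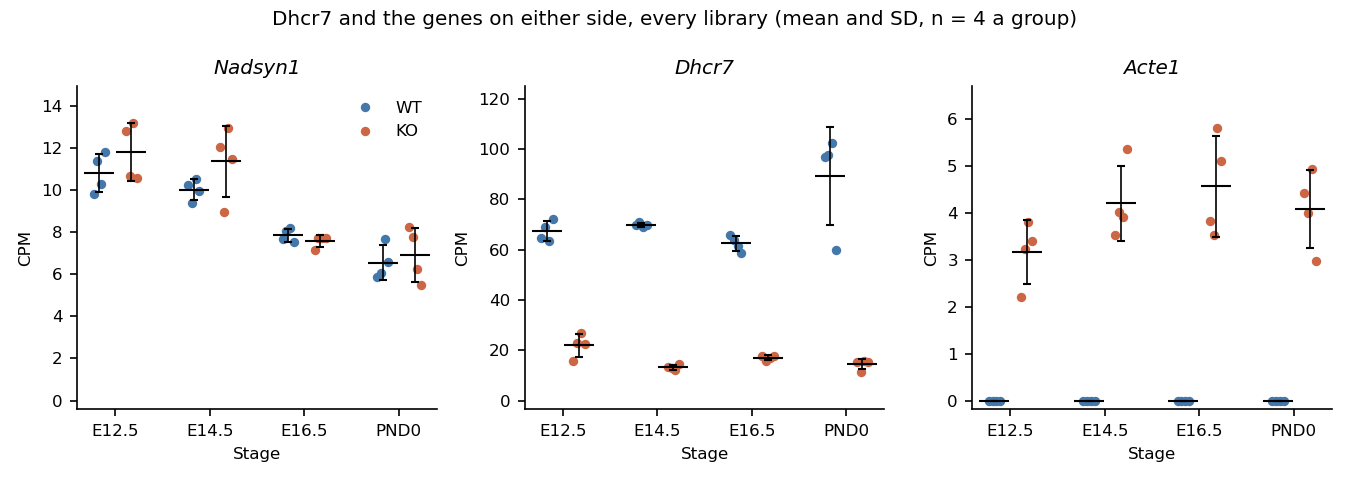
Level in CPM (vertical axis) of Nadsyn1, Dhcr7 and Acte1 by stage (horizontal axis), with each point a library, WT in blue and KO in orange, and black lines giving the mean and SD of 4 libraries. Acte1 is at 0 in all 16 WT libraries and between 2.20 and 5.80 CPM in KO, Dhcr7 separates the genotypes the other way, and Nadsyn1 overlaps between genotypes at every stage.

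Within KO, Acte1 kept a similar level from E12.5 to PND0. Libraries of successive stages ranged from 2.20 to 3.803 CPM, 3.52 to 5.36 CPM, 3.53 to 5.80 CPM and 2.98 to 4.92 CPM, so every pair of neighbouring stages overlapped. The change over the 4 stages did not pass the threshold (edgeR quasi-likelihood test, adjusted p = 0.172). The lowest library was E12.5 KO replicate 1, at 2.20 CPM, and without it the adjusted p was 0.439. The corresponding test of whether the KO effect on Acte1 changed with stage carries no information, because WT had no counts.

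Set against the genes on either side, and per kilobase of annotated exon, Acte1 in KO stood below what was left of Dhcr7. Its per-kilobase ratio to Dhcr7 within the same library was 0.296 ± 0.0114, 0.652 ± 0.0852, 0.547 ± 0.123 and 0.587 ± 0.133 (SD, n = 4) in stage order. The 4 ratios at E12.5 ran from 0.287 to 0.313 and lay below every ratio of the later stages, the lowest of which was 0.404. Dhcr7 was also at its highest KO level at E12.5, 21.9 ± 4.63 CPM. The ratio of Acte1 to Nadsyn1, per kilobase, was 0.315 ± 0.0783, 0.439 ± 0.108, 0.699 ± 0.152 and 0.693 ± 0.149 in the same order. Nadsyn1 fell over these stages, as described below. The ratios depend on the exon lengths used, 2833 nt for Acte1, 5817 nt for Dhcr7 and 3306 nt for Nadsyn1, which join the exons of all annotated transcripts.

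The annotated exons of Acte1 shared no base with another annotated gene, and no 150-nt or 50-nt stretch of its transcripts was found in the transcripts of another gene. Whether the reads start at the annotated start of Acte1 or run on from upstream cannot be told apart in a table of gene counts. By Pearson correlation of log2 CPM over the 32 libraries, among 16065 genes averaging 1 CPM or more, the genes most like Acte1 were Fdft1 (0.77), Insig1 (0.74) and Lss (0.74), and the least like it were Dhcr7 (-0.96), Abcg1 (-0.88) and Abca1 (-0.70). These genes act in sterol synthesis, its control or sterol export. The 32 libraries are 16 WT at 0 and 16 KO, so the coefficients follow the genotype.

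Nadsyn1, which shares the start region with Dhcr7, had overlapping genotypes at all 4 stages. WT libraries measured 9.82, 11.4, 10.3 and 11.8 CPM at E12.5, and KO libraries 12.8, 10.7, 13.2 and 10.6 CPM. At E14.5 they measured 10.3, 9.39, 10.6 and 9.96 CPM in WT and 12.1, 8.99, 12.96 and 11.5 CPM in KO. At E16.5 WT ranged from 7.53 to 8.19 CPM and KO from 7.16 to 7.75 CPM, and at PND0 the ranges were 5.88 to 7.71 and 5.48 to 8.24 CPM. KO and WT libraries were intermixed at every stage. The KO minus WT differences were 0.11 (SE 0.127), 0.18 (SE 0.112), -0.07 (SE 0.108) and 0.08 (SE 0.192) on the log2 scale, the first of them 0.05 without KO replicate 1 and the second 0.29 without KO replicate 2 and 0.11 without KO replicate 3, against -1.64, -2.40, -1.88 and -2.63 for Dhcr7.

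Mrgpre, which lies on the other side of Nadsyn1, also overlapped between genotypes at all stages. Its WT means were 6.66 ± 1.11, 12.6 ± 1.59, 14.3 ± 1.36 and 28.8 ± 6.16 CPM (SD, n = 4) in stage order, and its KO means 7.01 ± 1.44, 11.7 ± 1.19, 15.3 ± 2.09 and 23.0 ± 5.88 CPM. The sign of the difference changed between stages, with log2 values of 0.06 (0.16 without E12.5 KO replicate 1), -0.09, 0.08 and -0.33. At PND0 WT replicate 4, at 19.7 CPM, and KO replicate 3, at 14.4 CPM, lay below the other libraries of their groups, and without the latter the difference at that stage was -0.16.

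Shank2, the first of the genes beyond Acte1, was on average higher in KO at every stage but overlapped at every stage. At E12.5 WT libraries measured 32.4, 34.7, 53.9 and 44.3 CPM, and KO libraries 23.7, 58.4, 50.1 and 57.2 CPM. The lowest of these was KO replicate 1, and without it the log2 difference rose from 0.18 to 0.39. Over the omissions of any 1 library it ran from 0.07 to 0.39. At the later stages the log2 differences were 0.08 (SE 0.0385), 0.25 (SE 0.0867) and 0.02 (SE 0.0967). At E16.5 WT libraries measured 137.2, 119.7, 114.9 and 108.2 CPM and KO libraries 156.9, 139.5, 155.2 and 125.4 CPM. The difference at that stage ran from 0.21 to 0.33 over the omissions of any 1 library.

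The genotype differences of Cttn were small. Its log2 differences were 0.003 (-0.008 without E12.5 KO replicate 1), -0.06, -0.03 and 0.12 in stage order, and the KO libraries overlapped the WT libraries at all stages. Ppfia1 was lower in KO on average at all 4 stages, and its genotypes separated at PND0 alone among them. There WT libraries measured 66.3, 68.2, 74.8 and 79.0 CPM and KO libraries 59.4, 55.8, 59.5 and 55.0 CPM, a log2 difference of -0.34 (SE 0.0866). With an offset for transcript length the difference was -0.24. At E12.5 its difference of -0.13 rested on KO replicate 1, at 63.9 CPM against 95.2 to 103.1 CPM in the other KO libraries, and was -0.01 without it. Beside the PND0 value, summed choroid plexus markers were 326 to 611 CPM in WT and 602 to 987 CPM in KO, summed blood markers 179 to 237 CPM and 210 to 2067 CPM, and the part of either in the result was not tested. Fadd overlapped at all stages, with log2 differences of -0.05 (-0.11 without E12.5 KO replicate 1), -0.02, -0.03 and -0.34 (SE 0.276 at PND0). Its lowest library was PND0 KO replicate 3, at 2.32 CPM. The PND0 difference of Fadd was -0.11 without that library, -0.18 without WT replicate 1 and -0.54 without KO replicate 1. Its E16.5 difference ran from -0.10 to 0.10 over the omissions of any 1 library.

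The 2 genes farthest from Dhcr7, Mrgprf and Dusp8, were on average higher in KO at all 4 stages. Mrgprf had WT libraries at 0.723, 1.16, 1.73 and 1.054 CPM and KO libraries at 2.89, 2.62, 2.66 and 3.64 CPM at E12.5. It had 2.46, 3.61, 2.02 and 2.88 CPM in WT and 5.05, 3.62, 3.796 and 4.52 CPM in KO at E14.5. At E16.5 it had 2.13, 3.04, 3.59 and 3.38 CPM in WT and 5.25, 4.22, 4.49 and 3.62 CPM in KO. The KO libraries lay above all WT libraries at these 3 stages, with a narrow gap at E14.5 and E16.5. At PND0 WT ranged from 3.41 to 4.43 CPM and KO from 3.06 to 7.39 CPM, so the genotypes overlapped. The log2 differences were 1.32 (SE 0.269), 0.62 (SE 0.188), 0.52 (SE 0.186) and 0.53 (SE 0.255), and that at E12.5 was 1.32 without KO replicate 1. Over the omissions of any 1 library, that at E16.5 ran from 0.39 to 0.61. Mrgprf rests on few counts, 12 to 30 per WT library at E12.5. Summed smooth muscle and pericyte markers, a list that holds Rgs5, were 103 to 196 CPM in WT and 75.4 to 148 CPM in KO at E12.5, and 118 to 132 CPM and 133 to 144 CPM at E14.5. No marker of that list was at 0 throughout a group, 1 of its 6 markers was on average higher in KO at E12.5 and 4 of 6 at E14.5, and its part in the Mrgprf values was not tested.

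Dusp8 was on average higher in KO at all stages. At E14.5 WT libraries measured 200.7, 199.9, 182.9 and 192.5 CPM and KO libraries 232.4, 229.6, 222.9 and 216.8 CPM. At E16.5 WT libraries measured 183.1, 184.2, 168.0 and 166.2 CPM and KO libraries 225.1, 222.3, 220.7 and 195.0 CPM. The genotypes were separate at both stages. At E12.5 WT ranged from 61.9 to 121.5 CPM and KO from 89.6 to 146.9 CPM, and at PND0 the ranges were 253.7 to 333.3 and 331.7 to 360.0 CPM, with WT replicate 2 inside the KO range. The log2 differences were 0.40 (SE 0.211), 0.22 (SE 0.0349), 0.28 (SE 0.0608) and 0.25 (SE 0.0802), and that at E12.5 was 0.52 without KO replicate 1 and 0.25 without WT replicate 1. Summed neuronal markers were 2322 to 4207 CPM in WT and 3254 to 4260 CPM in KO at E12.5. All 6 were on average higher in KO. The sums at E14.5 were 4018 to 4280 and 3977 to 4216 CPM, with 5 of 6 markers on average higher in KO. Those at E16.5 were 5335 to 6024 and 5453 to 5873 CPM, with 4 of 6 higher. On PND0 they were 5322 to 6143 and 5783 to 6136 CPM, with 4 of 6 higher. The part of these markers in the Dusp8 values was not tested.

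**Figure D2:**
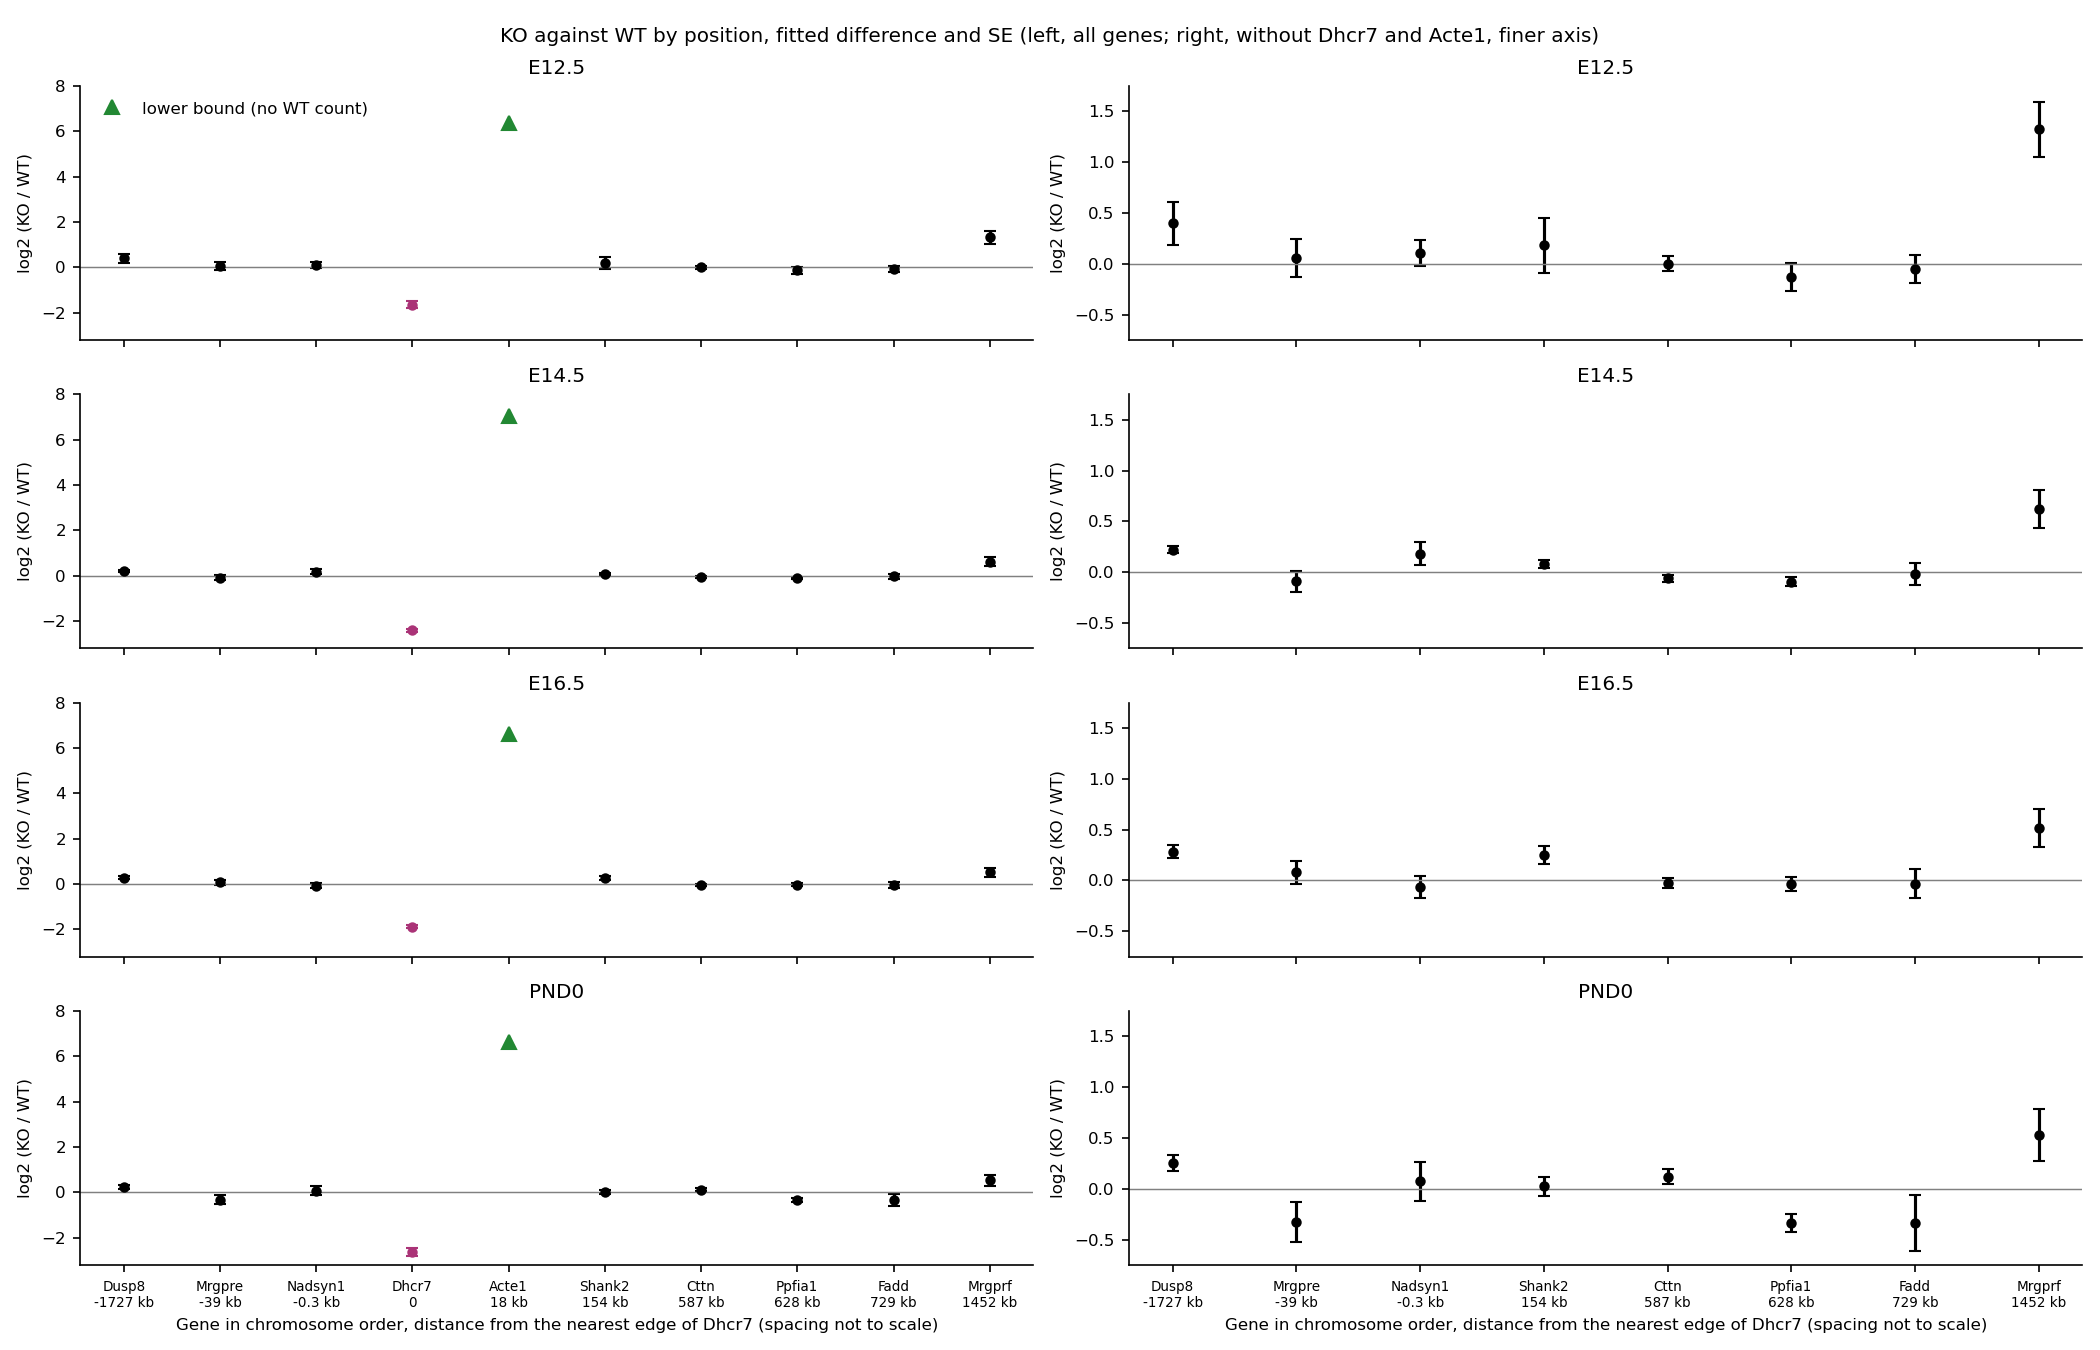
Fitted log2 difference of KO from WT (vertical axis) with its SE at each stage, for the genes in chromosome order (horizontal axis, spacing not to scale), with Dhcr7 in purple and Acte1 as a triangle at its lower bound. The right column leaves out Dhcr7 and Acte1 and shows Mrgprf, Shank2 and Dusp8 above 0 and Ppfia1 and Fadd below 0 at all 4 stages, with Nadsyn1 between -0.07 and 0.18 and Mrgpre between -0.33 and 0.08.

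As a description of the same contrast, the threshold of an adjusted p under 0.05 over all genes tested was passed among the 9 genes by Acte1 at all 4 stages and by Dusp8 at E14.5. That is 1, 2, 1 and 1 of 9 genes in stage order, beside 0.0177%, 0.527%, 0.0462% and 1.44% of all genes tested. At E12.5 the call for Acte1 was lost without KO replicate 2, KO replicate 3 or KO replicate 4, and with a covariate for sex-linked genes. At E14.5 the call for Dusp8 was lost when all 32 libraries were fitted together. The genotypes did not overlap in 2, 3, 3 and 2 of the 9 genes, beside 2.53%, 4.77%, 6.39% and 11.9% of all genes tested. Acte1, Mrgprf, Shank2 and Dusp8 were higher in KO at all 4 stages, beside 7.1% of the 15750 genes tested at all 4, and Ppfia1 and Fadd were lower at all 4, beside 6.58%. Nothing is read from these counts, since the same contrast was known when the genes were chosen.

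Differences were also set beside distance from Dhcr7. Leaving out Acte1, the median size of the log2 difference over the other 8 genes was 0.12, 0.09, 0.07 and 0.29 in stage order, and over all genes tested 0.12, 0.07, 0.10 and 0.17. Mrgprf and Dusp8, the 2 largest in size of these 8 at E12.5, E14.5 and E16.5, lie more than 1 Mb away. At PND0 Mrgprf was largest, and Ppfia1, Fadd and Mrgpre, the last 38.6 kb away, were larger in size than Dusp8. Among all genes tested within 1 Mb of Dhcr7, those of the imprinted domain included, 23 to 25 per stage, the median size was 0.15, 0.09, 0.12 and 0.22, and Acte1 was the only call by edgeR. With the listed genes of the imprinted domain left out, 10 to 12 genes per stage had medians of 0.125, 0.08, 0.07 and 0.33. The list goes by gene name, and R74862 and Tspan32os, which lie among its genes, were kept where tested. The genes kept still held those within 1 Mb chosen with their KO against WT values known, Acte1 among them. Without those chosen genes, 3, 5, 3 and 4 genes were left in stage order, with medians of 0.223, 0.045, 0.144 and 0.324. None of those left lay under 0.5 Mb, so they give no separate comparison of the region close to Dhcr7. Bins of distance are thinly filled: 11 to 12 genes were tested under 0.5 Mb and 11 to 13 from 0.5 to 1 Mb.

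Beside the 9 genes and Dhcr7, 56 annotated genes of the tables lie within 1 Mb, and 46 had a count. At each stage 16, 18, 16 and 17 of these were tested, and by edgeR none passed the threshold at any stage. An unadjusted p under 0.05 was reached by 1, 2, 2 and 0 of them, and DESeq2 called 0 at each stage. The 9 that reached a mean of 10 CPM were R74862, Cd81, Tssc4, Kcnq1ot1, Cdkn1c, Nap1l4, Cars, Osbpl5 and Ano1. Osbpl5, the closest of them at 66.2 kb before Dhcr7, encodes an oxysterol-binding protein homologue and had log2 differences of -0.15, -0.01, 0.17 and 0.05. Cdkn1c, an imprinted inhibitor of the cell cycle, had -0.08, 0.09, 0.02 and 0.11. Ano1, a chloride channel gene at 740.1 kb on the Fadd side, had 0.22, 0.02, 0.02 and -0.29 (SE 0.214).

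The course of the neighbours in normal brain was tested in the 16 WT libraries, a comparison of stages that uses no KO library. All 8 genes other than Acte1 changed over the 4 stages (edgeR, adjusted p from 2.48e-10 for Shank2 to 6.74e-05 for Mrgprf), as did 84.1% of all genes tested. They fell into a rising set, Shank2, Dusp8, Mrgpre and Mrgprf, and a falling set, Cttn, Ppfia1, Fadd and Nadsyn1. Along the chromosome, Dusp8 and Mrgpre (rising) come first, then Nadsyn1 (falling), Shank2 (rising), Cttn, Ppfia1 and Fadd (falling) and Mrgprf (rising). Over the 16 WT libraries, which form 4 stages, the Pearson correlation within the rising set was 0.82 to 0.98 and within the falling set 0.80 to 0.92, and every correlation between the sets was negative. The sets were sorted by direction in these same libraries, so the signs follow from the sorting.

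Shank2 rose most. WT means were 41.3 ± 9.82, 121.9 ± 2.94, 120.0 ± 12.4 and 223.4 ± 20.6 CPM (SD, n = 4). It rose 2.90-fold from E12.5 to E14.5 (adjusted p = 3.1e-05) and 1.83-fold from E16.5 to PND0 (adjusted p = 1.89e-06), with no change that passed between E14.5 and E16.5 (adjusted p = 0.983). Each rise separated all 4 libraries of a stage from those of the stage before. Dusp8 followed the same steps, from 94.4 ± 26.5 to 194.0 ± 8.28, 175.4 ± 9.60 and 289.4 ± 33.8 CPM. It rose 2.02-fold at the first step (adjusted p = 0.00147) and 1.62-fold at the last (adjusted p = 8.55e-06). Between them it fell by 0.13 on the log2 scale (adjusted p = 0.0489), a call that was lost without E14.5 WT replicate 1, 2 or 4 or E16.5 WT replicate 3 or 4.

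The receptor genes rose as well, at lower levels. Mrgpre rose 1.85-fold from E12.5 to E14.5 (adjusted p = 0.000412) and 1.97-fold from E16.5 to PND0 (adjusted p = 7.74e-05). Mrgprf rose 2.32-fold from E12.5 to E14.5 (adjusted p = 0.00407), and neither later step passed (adjusted p = 0.552 and 0.292). Its WT means were 1.17 ± 0.417, 2.74 ± 0.679, 3.04 ± 0.644 and 3.76 ± 0.478 CPM. Without stage E12.5, the course of Mrgprf no longer passed (adjusted p = 0.113), and those of the other 7 genes did. None of 10 other Mas-related receptor genes had enough counts to be tested, and 7 of them had any count.

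The falling genes passed the threshold at the step from E14.5 to E16.5 alone. Ppfia1 fell from 102.1 ± 2.24 to 67.4 ± 5.69 CPM (log2 change -0.58, adjusted p = 6.91e-07), and the 4 libraries of each stage did not overlap. Fadd fell from 10.9 ± 0.932 to 6.58 ± 1.14 CPM (-0.71, adjusted p = 0.000275), Cttn from 227.1 ± 5.52 to 191.7 ± 4.08 CPM (-0.22, adjusted p = 0.000436), and Nadsyn1 from 10.04 ± 0.502 to 7.87 ± 0.314 CPM (-0.33, adjusted p = 0.0148). Over the same interval WT progenitor markers summed to 1656 to 1829 CPM at E14.5 and 1237 to 1397 CPM at E16.5. Of the 6 markers, 5 fell past the threshold and 1 rose, Fabp7, from a mean of 308.6 to 559.8 CPM. The part of these markers in the falls was not tested. None of the 4 falling genes passed the threshold at the first or the last step, and none had an unadjusted p under 0.05 there or was called by DESeq2. The smallest adjusted p of those steps was 0.111, for Nadsyn1 from E16.5 to PND0. Its log2 change there was -0.29 (SE 0.146), close in size to that of the step before. At the 3 steps 4, 5 and 3 of 8 genes passed, beside 57.8%, 57.5% and 53.2% of all genes tested. The 4 of the first step all rose (beside 27.3% of all genes tested), the 5 of the second all fell (28.2%) and the 3 of the last all rose (26.0%).

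**Figure D3:**
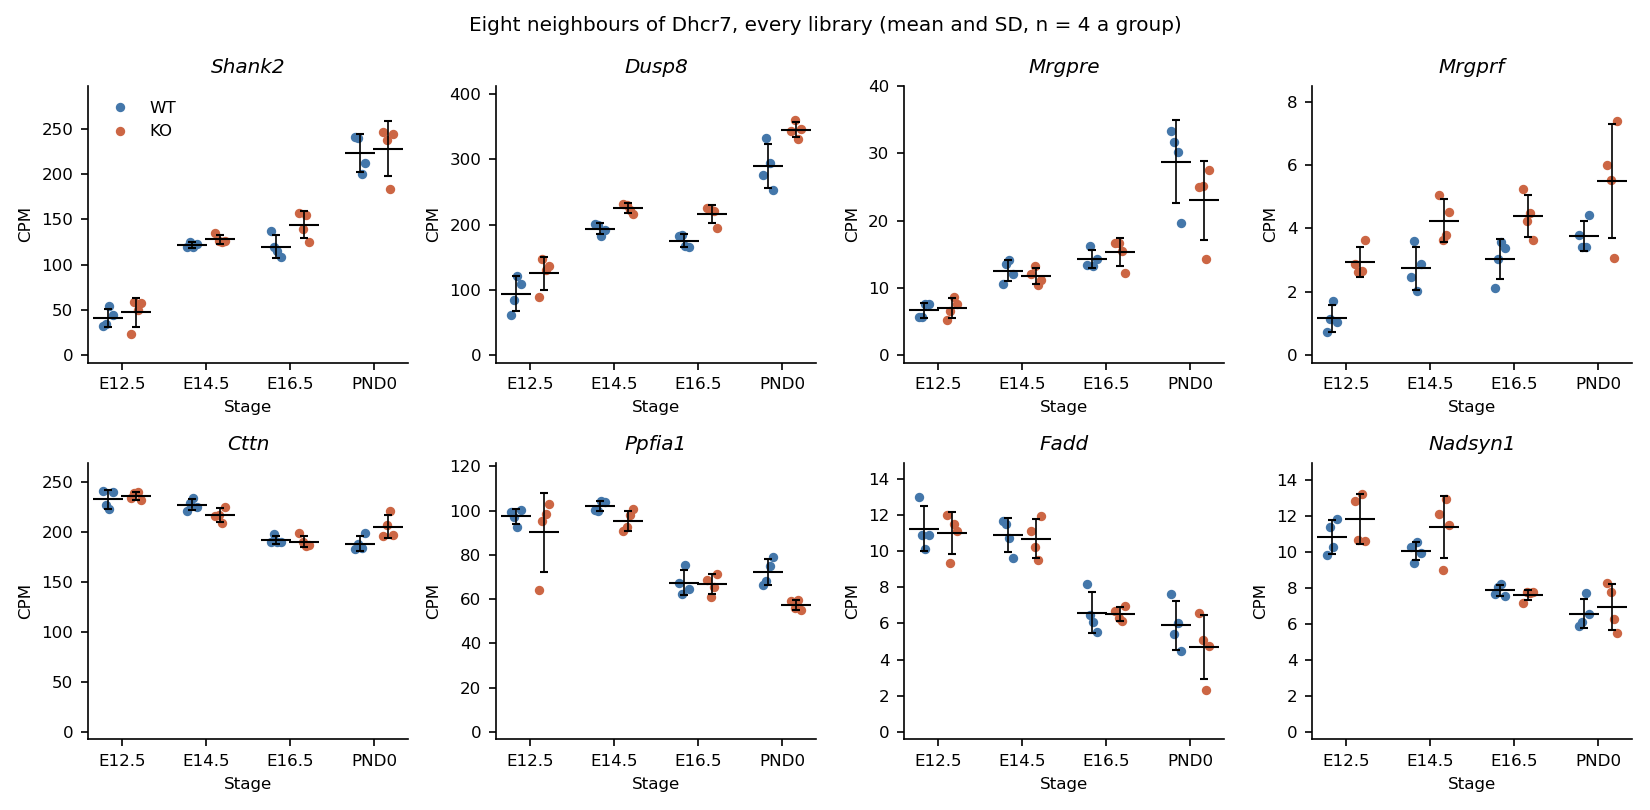
Level in CPM (vertical axis) of the 8 neighbours other than Acte1 by stage (horizontal axis), with each point a library, WT in blue and KO in orange, and black lines giving the mean and SD of 4 libraries. The top row holds the genes that rise, such as Shank2 from 41.3 to 223.4 CPM in WT, and the bottom row those that fall, such as Ppfia1 from 97.5 to 72.1 CPM.

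The E12.5 libraries held more RNA of tissue around the brain than later ones, beside the rises from E12.5 to E14.5. Summed meningeal fibroblast markers in WT were 1431 to 3167 CPM at E12.5 and 637 to 740 CPM at E14.5, blood markers 1758 to 7871 and 1033 to 1345 CPM, and neuronal markers 2322 to 4207 and 4018 to 4280 CPM. Their part in the rises of Shank2, Dusp8, Mrgpre and Mrgprf was not tested.

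In KO the same 8 genes changed over the stages (adjusted p from 3.72e-09 for Dusp8 to 0.0118 for Mrgprf), beside 80.2% of all genes tested, and Acte1 did not pass. Whether the KO effect changed with stage was tested in all 32 libraries. None of the 8 genes other than Acte1 passed (edgeR, adjusted p from 0.427 for Mrgprf to 0.899 for Shank2), beside 0.0256% of all genes tested. Of these 8, 0 had an unadjusted p under 0.05, and DESeq2 called 0 of them. The test carries no information on Acte1, which had no WT counts. The KO against WT differences it compares were known when the genes were chosen. Without E12.5 KO replicate 1, Ppfia1 passed (adjusted p = 0.0456) and the number of genes called rose from 5 to 797. Dhcr7 itself passed with all libraries (adjusted p = 0.0349).

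Levels of different genes were compared per kilobase of exon in WT. The order depends on the lengths used, which join the exons of all annotated transcripts. For Dhcr7 this length was 5817 nt and its longest transcript 2815 nt, and for Ppfia1 they were 12556 nt and 5181 nt. Other orders would follow from lengths of single transcripts. At E12.5 the order was Cttn (55.5 CPM per kb), Dusp8 (19.4), Dhcr7 (11.6), Ppfia1 (7.76), Shank2 (3.84), Nadsyn1 (3.28), Fadd (2.88), Mrgpre (1.77) and Mrgprf (0.526), with Acte1 at 0. Libraries of Shank2 and Nadsyn1, and of Nadsyn1 and Fadd, overlapped in that order, and no other neighbours in it did. By PND0 Dusp8 (59.4) stood above Cttn (44.9), and Shank2 (20.8) above Dhcr7 (15.3). They were followed by Mrgpre (7.65), Ppfia1 (5.74), Nadsyn1 (1.99), Mrgprf (1.70) and Fadd (1.51), where the neighbours Mrgpre and Ppfia1, Nadsyn1 and Mrgprf, and Mrgprf and Fadd overlapped. In KO, Acte1 had 1.11 ± 0.240, 1.48 ± 0.282, 1.61 ± 0.377 and 1.44 ± 0.292 CPM per kb (SD, n = 4), within the range of the WT stage means of Mrgprf.

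**Figure D4:**
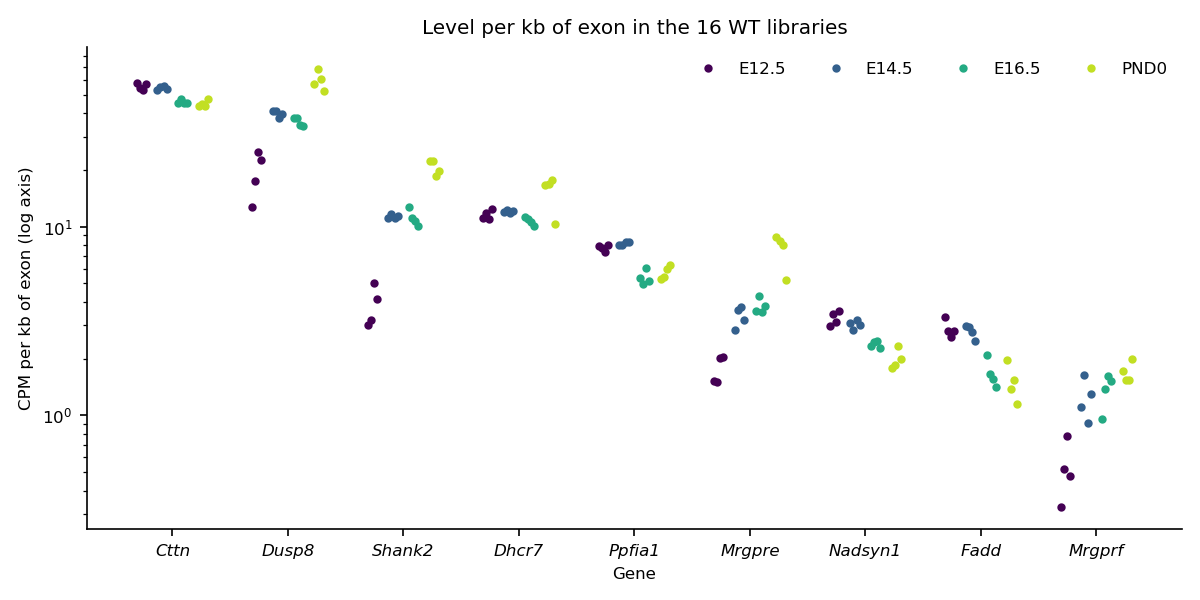
Level in CPM per kb of annotated exon (vertical log axis) of Dhcr7 and 8 neighbours (horizontal axis) in the 16 WT libraries, with each point a library and the colour its stage. Acte1, at 0 in all of them, has no place on a log axis, and the 4 stages of Shank2 span 3.84 to 20.8 CPM per kb on average while those of Cttn span 44.9 to 55.5.

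The genes whose WT course was most like that of a neighbour were found by Pearson correlation of log2 CPM over the 16 WT libraries, among 16065 genes. For Shank2 they were Trim67 (0.995), Shank1 (0.993) and Phactr1 (0.992), and for Dusp8 Mcf2l (0.994) and Srcin1 (0.993). Mrgpre was most like Camta1, 4933431E20Rik and Rab6b (0.98 to 0.981), and Mrgprf most like Cdk17 (0.96), Insyn2a (0.952) and Rgs5 (0.95). In the falling set, Nadsyn1 was most like Nrm (0.968), Cttn most like Hic2 (0.974), Ppfia1 most like Ints7 (0.984) and Fadd most like Snora17 (0.951). Libraries of a stage share their stage, so these coefficients describe a shared course over 4 stages.

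Genes of the same families and pathways elsewhere in the genome were counted by the same tests. Over all genes tested, 84.1% changed over the WT course and 57.8% and 57.5% at its first and second steps, and the counts below are to be set beside these shares. Of 11 other postsynaptic scaffold genes, all 11 changed over the WT course, with the smallest adjusted p for Shank3 (3.93e-10), and at the step from E12.5 to E14.5 7 rose and 2 fell. Of 11 liprin and active zone genes, all 11 changed over the WT course, and 8 rose and 1 fell at that step, while Ppfia1, a liprin itself, fell later. Of 9 tested MAP kinase phosphatase genes, the relatives of Dusp8, 8 changed over the course, and 6 fell and none rose from E14.5 to E16.5. Of 13 NAD synthesis genes, 9 were tested and 7 changed. Of 11 death receptor pathway genes, 10 were tested and 9 changed, led by Tnfrsf21, and 5 fell and 1 rose at the first step. Of 11 branched actin and cortactin partner genes, 9 changed, led by Wasf1, and of 7 actin genes 6 were tested and all 6 changed.

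Between genotypes, 0, 1, 0 and 1 of the 65, 65, 61 and 64 tested genes of these lists passed in edgeR's test in stage order, beside 0.0177%, 0.527%, 0.0462% and 1.44% of all genes tested. Pclo, which encodes the active zone scaffold piccolo, was higher in KO at E14.5 (adjusted p = 0.00122), and Erc1, of the same list, was lower at PND0 (adjusted p = 0.00631). Over these lists DESeq2 called 0, 1, 2 and 8 genes in stage order, and by edgeR 2, 9, 8 and 17 had an unadjusted p under 0.05. Pclo was the call of both at E14.5, the calls of DESeq2 at E16.5 were Shank3 and Cfl1, and those at PND0 held Erc1. No tested gene of the actin list passed at any stage by edgeR or by DESeq2, and 1, 1, 0 and 0 had an unadjusted p under 0.05. Of the 7 genes, 6, 5, 4 and 5 were tested, and the smallest adjusted p values were 0.875, 0.559, 0.672 and 0.58 in stage order, for Actc1, Acta1, Acta2 and Actg1.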

How the data were processed

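The authors deposited raw counts per gene, 1 table per stage. HISAT2, SAMtools, featureCounts, DESeq2 and the mm10 build are named, per the submitters' processing notes, without versions, and the strand setting is not given in the sources used here. RNA came from whole brain, libraries were poly(A)-selected and read as 150 bp pairs, per the labels' protocols.

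The counts were tested with edgeR 4.0.16 (limma 3.58.1, R 4.3.3): TMM normalization, a filter on low counts (at least 10 in enough libraries, 15 in all), robust quasi-likelihood fits over all genes, and Benjamini-Hochberg adjustment with a threshold of 0.05. Fits held the 8 libraries of a comparison, 16 of a course, or all 32. They were checked on simulated data. Log2 CPM used a prior count of 2. Alternatives included DESeq2 1.42.0. A count of 0 allowed 0.106 to 0.228 CPM in a library (floor of 3 counts).

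Named genes are Dhcr7, the 9 genes, other genes within 1 Mb that passed or reached 10 CPM, the 3 most alike in course (1 of them is not reported here), and in each related list the gene with the smallest p. Members, lists and tests were chosen with earlier results of these data known. Of 55291 symbols, 53180 matched GENCODE M21 by name and 397 by synonym, Acte1 among these. Fadd shares 239 nt of exon with the antisense gene Faddos. Same-numbered WT and KO libraries did not deviate together (r from -0.276 to 0.303, 3 of 16 pairs over 0.1), so the numbers were not used as pairs.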

Additional observations from a re-analysis of the deposited data

Results flagged for a closer look

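In 6 of 76 combinations of gene and group, 1 library lay far from the other 3, where chance alone marks about 1 group in 20. Dhcr7 measured 60.0 CPM in PND0 WT replicate 4, against 96.9 to 102.4 CPM in the other libraries. It measured 11.5 CPM in PND0 KO replicate 2, against 15.1 to 15.7. Nadsyn1 measured 7.16 CPM in E16.5 KO replicate 1, against 7.73 to 7.75. Shank2 measured 183.2 CPM in PND0 KO replicate 3, against 238.0 to 247.1. Cttn measured 197.9 CPM in E16.5 WT replicate 2, against 189.6 to 189.8. Dusp8 measured 195.0 CPM in E16.5 KO replicate 4, against 220.7 to 225.1.

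The KO effect on Dhcr7 differed between stages by a test of the interaction (edgeR, adjusted p = 0.0349), with log2 differences of -1.64, -2.40, -1.88 and -2.63. Leaving out 1 library moved the adjusted p between 0.000147 and 0.149, and 17 of the 32 single libraries, when left out, took it past 0.05.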

How the results depend on the processing

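The genotype calls moved most, and the cause was not tested. Genes called in KO against WT, 3, 94, 8 and 250 in stage order, became 146, 233 and 1091 at E14.5, E16.5 and PND0 without a filter on low counts. With DESeq2 they were 23 at E12.5, 150 at E16.5 and 904 at PND0, and with all 32 libraries in 1 fit 52, 4, 3 and 1205. At E16.5 the covariate for sex-linked genes left 4, and at PND0 the ribosomal RNA covariate left 2 and length offsets 46. Of the 9 genes around Dhcr7, 2 passed at E12.5 with DESeq2 and with the 32-library fit, and 0 with the covariate for sex-linked genes. At E14.5, 1 passed in each of the first 2 of these, DESeq2 giving Acte1 no adjusted p at this stage or later. Without the filter 3 passed at E16.5 and 2 at PND0, and the 32-library fit gave 2 at PND0. Genes whose KO effect changed with stage were 5, but 11 without the filter and 346 with DESeq2.

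Leaving out 1 library gave 1 to 5, 52 to 155, 3 to 14 and 35 to 263 genes in stage order, and 0 to 797 for the KO effect changing with stage. The same omissions gave 0 to 1 of the 9 genes at E12.5 and 0 to 1 for the change with stage. The replicate number as a block gave 6 genes at E12.5, 5 at E16.5 and 1 for the change with stage, moved no call of the 9 genes, and took Dhcr7's change with stage to an adjusted p of 0.0578. With 3 counts allowed in each WT library, Acte1 was at least 17.3-fold, at least 30.5-fold, at least 23.6-fold and at least 21.4-fold higher in stage order.

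The WT steps that passed kept their direction under every alternative run. Fadd from E12.5 to E14.5, Shank2 from E14.5 to E16.5 and Cttn from E16.5 to PND0, which did not pass, changed sign under some. The calls lost in WT and KO courses and WT steps were those of Dusp8 and Dhcr7 from E14.5 to E16.5 and of Mrgprf's course without stage E12.5, in WT and in KO (adjusted p 0.113 and 0.202), an omission chosen after seeing the data. Low counts limit Acte1, Mrgprf and Fadd.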
